A study of Homo sapiens with 18 samples.

Results

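The 45 genes described here encode the unfolded protein response (UPR), the integrated stress response (ISR) and the main chaperones of the endoplasmic reticulum (ER), cytosol and mitochondria. They were chosen by gene symbol from a list of these pathways, and every listed symbol was found among the 53853 entries of the count table. All 45 were among the 17567 genes with enough counts to be tested, and each had counts in all 17 libraries used. The data are poly(A) RNA-seq read counts and TPM (a level per transcript length, scaled to the library) of cerebral organoids, which are neural tissue grown from human embryonic stem cells, here with a ventral forebrain protocol.

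Organoids of the H9 and H1 embryonic stem cell lines were treated at day 83, with 3 libraries for each of 6 combinations of line and treatment. Chronic organoids received 1 µM dopamine daily for 1 week and a final dose lasting 1 hour. Acute organoids received the vehicle during that week and then 1 µM dopamine for 1 hour, and control organoids received vehicle alone. The vehicle was 100 µM ascorbic acid, an antioxidant, and it was present in every group. Each line stands for a single stem cell line. Separate cultures, or pools of organoids, are not named in the labels for the 3 libraries of a group. P-values therefore reflect the spread between libraries alone, and that spread may be technical.

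Proteins that enter the ER are folded by the chaperones HSPA5 (BiP) and HSP90B1 (GRP94) and by protein disulfide isomerases. When unfolded proteins accumulate, the sensors ERN1 (IRE1), EIF2AK3 (PERK) and ATF6 are activated. ERN1 splices the mRNA of XBP1, ATF6 is cleaved into a transcription factor, and EIF2AK3 phosphorylates eIF2, which lowers general translation and raises that of ATF4. ATF4 and its partner DDIT3 (CHOP) switch on amino acid synthesis, redox and cell death genes, and other kinases reach the same node in the ISR. The cytosolic heat shock response is driven by HSF1. Splicing, cleavage, phosphorylation and protein levels were not measured, so the values below are mRNA levels only.

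These arms are known to act through short DNA elements, and the promoters of the genes show how far the list shares them. RefSeq promoters (build GRCh38.p14) were matched for 42 of the 45 genes, and the 250 bases before each start were searched on both strands for 5 motifs. The ER stress element, CCAAT and CCACG with 9 bases between, was in the promoters of CALR, CANX, CRELD2, HSP90B1, HSPA5 and XBP1, which are 6 of 42 (14.3%), against 0.074% of all 35116 promoters in the table. These 6 are shown because this element was the most frequent of the 5 motifs in the list. They are 5 of the 14 ER chaperones and XBP1, a transcription factor of the UPR. Capitals mark the element, and each sequence is written in the orientation of the motif.
HSPA5 (chr9:125241386-125241414, minus strand): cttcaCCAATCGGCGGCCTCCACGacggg
HSP90B1 (chr12:103930316-103930344, minus strand): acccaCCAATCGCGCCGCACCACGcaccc
XBP1 (chr22:28800598-28800626, minus strand): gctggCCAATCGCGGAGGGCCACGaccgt
CRELD2 (chr22:49918549-49918577, minus strand): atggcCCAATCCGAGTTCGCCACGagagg
CANX (chr5:179698773-179698801, plus strand): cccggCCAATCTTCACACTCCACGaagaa
CALR (chr19:12938379-12938407, minus strand): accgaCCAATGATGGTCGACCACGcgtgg
The element of HSPA5 lay 66 to 48 bases before the start, that of XBP1 52 to 34 bases before it, and the CALR element was the most distant of these 6, at 225 to 207 bases. HSP90B1 held the element at 2 places, and the nearer is shown.

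The ER stress element II, ATTGG and CCACG with 1 base between, was found in HERPUD1, HYOU1 and SDF2L1 (7.14% of the 42, against 0.0513% of all promoters). In all, 9 genes carried either form of the ER stress element.
HERPUD1 (chr16:56932020-56932040, plus strand): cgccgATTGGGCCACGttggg
HYOU1 (chr11:119057269-119057289, plus strand): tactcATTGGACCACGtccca
SDF2L1 (chr22:21642109-21642129, minus strand): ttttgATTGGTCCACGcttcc
The UPR element TGACGTGG occurred in HYOU1 alone (2.38%, against 0.612% of all promoters), where it overlapped the second copy of the ER stress element II. The core of the composite element bound by ATF4, TGATGNAA, was in ASNS, CHAC1 and HERPUD1 (7.14%, against 3.14%). It is shown because ASNS and CHAC1 are known ATF4 targets.
ASNS (chr7:97872464-97872481, minus strand): aggcaTGATGAAActtcc
CHAC1 (chr15:40953257-40953274, minus strand): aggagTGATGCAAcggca
HERPUD1 (chr16:56931961-56931978, minus strand): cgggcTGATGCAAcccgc
The heat shock element, 3 alternating GAA and TTC units with 2 bases between them, was in HSPA8 and SERPINH1 (4.76%, against 0.441%).
HSPA8 (chr11:123062174-123062196, plus strand): tcttaGAACCTTCCAGAAggggc
SERPINH1 (chr11:75562172-75562194, minus strand): cccgaGAAACTTCTGGAAagttg
Of the 14 stretches shown, 7 lay inside the longer gene span that GENCODE annotates, because the 2 annotations place some starts differently. Only exact matches to the spelled motifs within the 250 bases were counted. An element that differs by a base or lies elsewhere would be missed, so a gene without a match may still hold one. The matches are a description of the sequence, without a test, and no binding was measured.

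Depth was 13647204 to 21691180 counts in 17 of the libraries. Library 9, an H1 control, held 43284 counts, of which 92 fell on the 45 genes and 23 of the genes had none, so it was left out of means and fits. The H1 control group therefore has n = 2. The 45 genes took 0.816% to 1.09% of each library's counts. In the labelled tissue, neuron markers summed to 8180 to 9460 CPM (counts scaled to normalised library size) in H9 and 5990 to 7460 CPM in H1. Forebrain factors went both ways: LHX2 was lower in H9, at 0.963 to 5.65 CPM, against 125 to 181 CPM in H1, and SIX3 was higher in H9, at 15.1 to 43.4 CPM, against 3.37 to 23.4 CPM in H1. In 5 of the 17 libraries, counts of 10 blood genes exceeded those of 6 gut genes, and 0 of the chronic libraries were among them.

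Levels of the 45 genes differed widely. By the deposited TPM, the highest mean over all 17 libraries was that of HSPA8 (Hsc70), the constitutive cytosolic HSP70. It had 2250 ± 115 TPM in H9 and 1740 ± 65.7 TPM in H1 (SD, n = 9 and 8 libraries of all treatments). The constitutive HSP90AB1 had 2020 ± 159 TPM in H9 and 1930 ± 42 TPM in H1, where it lay above HSPA8. The inducible HSP90AA1 had 1530 ± 174 TPM in H9 and 1110 ± 39.5 TPM in H1. The ER lumen was led by HSP90B1, at 544 ± 71.4 TPM in H9 and 402 ± 36 TPM in H1, and by the calcium-binding lectin chaperone CALR, at 521 ± 48.9 TPM in H9 and 395 ± 38.1 TPM in H1. These abundant chaperones lay far above the sensors and effectors. ATF4 mRNA was also abundant, at 287 ± 20.2 TPM in H9 and 343 ± 9.44 TPM in H1, whereas its partner DDIT3 had 61.5 ± 10.7 TPM in H9 and 26.7 ± 5.92 TPM in H1. The lowest over all 17 libraries were the sensor ERN1, at 3.39 ± 0.636 TPM in H9 and 2.91 ± 0.472 TPM in H1, CHAC1, at 6.72 ± 1.22 TPM in H9 and 3.35 ± 0.306 TPM in H1, and the BiP cofactor SDF2L1, at 5.11 ± 1.31 TPM in H9 and 6.24 ± 1.79 TPM in H1. In H1 alone CRYAB lay below SDF2L1, at 5.79 ± 1.88 TPM, whereas it had 55.8 ± 31.7 TPM in H9.

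**Figure D1:**
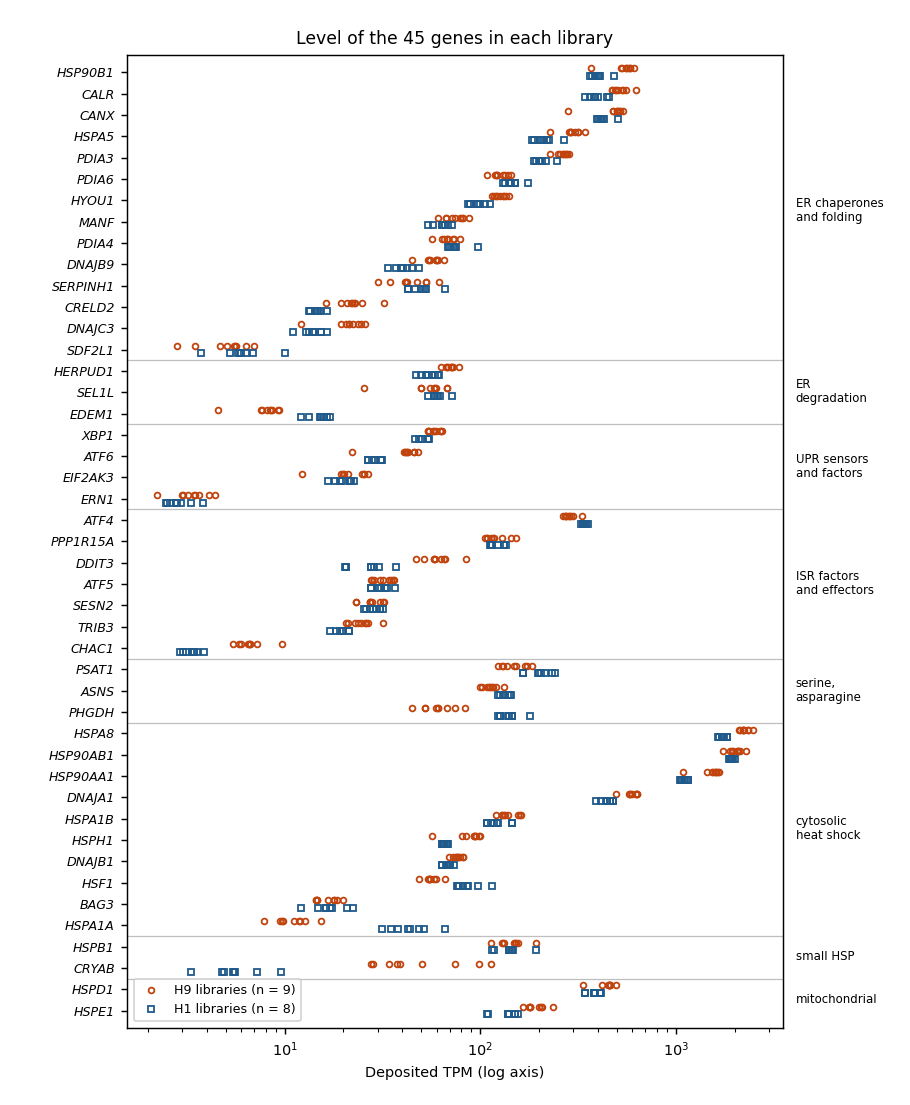
Deposited TPM of each of the 45 genes in every library used, on a log axis, with circles for the 9 H9 libraries and squares for the 8 H1 libraries, grouped by role. HSPA8, HSP90AB1 and HSP90AA1 sit rightmost, at 1050 TPM or higher in every library, and ERN1, CHAC1 and SDF2L1 sit at 10 TPM or lower.

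Spread within a group of 2 or 3 libraries was small for most of the genes. The median coefficient of variation of normalised CPM was 8.05% over the 45 genes and 11.7% over all genes tested. It was 7.87% over genes whose mean CPM was at or above the lowest quartile of the 45, so the spread of the 45 was near that of genes at such levels. HSP90AB1 was the steadiest (1.96%) and the small heat shock protein CRYAB the most variable (47.1%). An H9 chronic library, library 11, stood apart. Of the 45 genes, 20 were highest and 11 were lowest in it among the 9 H9 libraries, as were 65.1% of all genes tested at either end. Its deviation from the other H9 libraries fell with transcript length, with a Spearman correlation of -0.6 across 15104 genes and -0.8 across the 45, given as a description of genes that share a library. In the other 16 libraries it lay between -0.35 and 0.44 across the 15104 genes. The short HSPE1 transcript (557 bases) was 0.71 above the median of the other H9 libraries on the log2 scale, and the long SEL1L transcript (7919 bases) was 0.87 below it (log2 difference of -0.87). For the 3 genes of smallest p in each dopamine comparison that uses chronic H9 libraries, differences are therefore also given without library 11. The H9 difference of SLC7A11, described below, and the differences between lines are not given in this way.

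**Figure D2:**
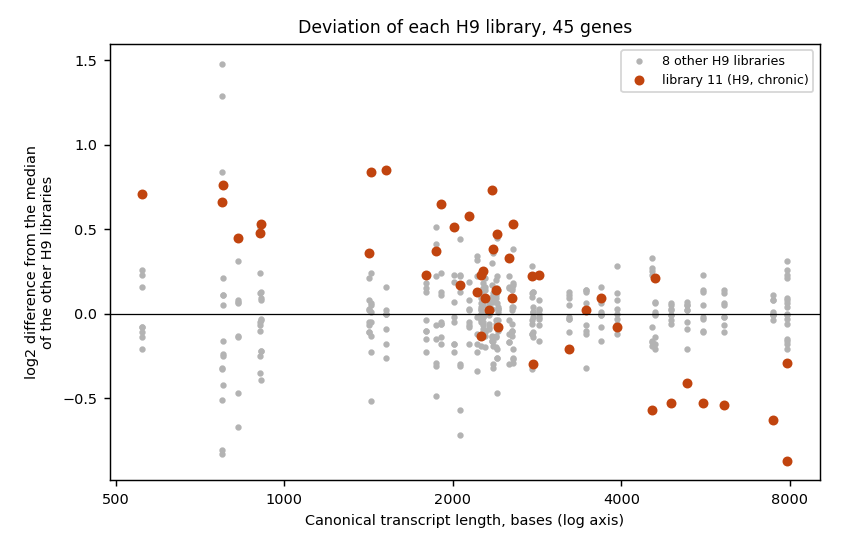
Log2 difference of each H9 library from the median of the other H9 libraries for the 45 genes, against canonical transcript length on a log axis, with library 11 in colour and the other 8 libraries in grey. Points of library 11 run downward with length, from HSPE1 at 0.71 to SEL1L at -0.87.

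What a week of dopamine did to these genes was asked first. No gene of the 45 passed in the chronic against control comparison averaged over both lines (edgeR, adjusted p under 0.05), where 0.524% of all genes tested did. These background shares turned on single libraries: the 92 genes behind this one became 5 without library 8, an H1 control, and 203 without library 11. At an unadjusted p under 0.05 there were 2 of the 45, DDIT3 and HERPUD1, a share of 4.44% against 10% of all genes. The median log2 fold change of the 45 was 0.045, beside 0.01 for all genes, and single values lay between -0.2 and 0.4. For 42 of the 45 the 95% confidence interval stayed within 1.5-fold in either direction, and for 44 within 2-fold, the exception being CRYAB.

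DDIT3, the pro-apoptotic transcription factor CHOP (chr12:57516588-57521737, GRCh38), had the smallest p of the chronic comparison. Chronic H9 libraries held 28.5, 27.8 and 16.2 CPM, acute H9 libraries 17.4, 21.6 and 19.3 CPM, and H9 controls 23.6, 20 and 19.7 CPM. In H1, chronic libraries held 9.79, 12.8 and 9.6 CPM, acute libraries 9.67, 7.58 and 11.1 CPM, and controls 7.36 and 7.11 CPM. Chronic values lay above both controls in H1 and overlapped the controls in H9. Here and below, overlap between treatment groups is described for genes picked by p in the same libraries. Lack of overlap is therefore no further test. The share of all genes without overlap is not given for treatments. The chronic difference averaged over lines was 0.38 ± 0.15 on the log2 scale (SE, 17 libraries), with an edgeR adjusted p of 0.368. Without library 11 the log2 difference was 0.34.

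HERPUD1, a membrane protein of ER-associated degradation (chr16:56932142-56944864), came next. It had 38.9, 46.3 and 35.5 CPM in chronic H9, 39.9, 40.3 and 41.8 CPM in acute H9, and 39.3, 39.6 and 37.7 CPM in H9 controls. Chronic H1 libraries held 34.6, 34.1 and 33.3 CPM, acute H1 libraries 30.6, 31.7 and 33.8 CPM, and H1 controls 27.3 and 28.4 CPM. Chronic and acute values both lay above the controls in H1. In H9 the acute values lay just above the controls, and the chronic values overlapped both groups. Its averaged difference was 0.17 ± 0.08 (adjusted p = 0.465), or a log2 difference of 0.12 without library 11. SESN2, a stress-induced regulator of growth signalling, came after it by p. It had 31.9, 29.5 and 28.2 CPM in chronic H9 and 30, 23.8 and 27.7 CPM in H9 controls, with overlap. In H1 it had 31.4, 30.2 and 33.2 CPM in chronic and 27.2 and 28.7 CPM in control libraries, without overlap, and the averaged difference was 0.16 ± 0.09 (adjusted p = 0.606), or a log2 difference of 0.17 without library 11.

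By role, the 7 ISR factors and effectors (ATF4, ATF5, DDIT3, TRIB3, PPP1R15A, CHAC1 and SESN2) all had positive chronic values, between 0.05 and 0.38 with a median of 0.15, and 0 of them passed. The 14 ER chaperones ran from -0.1 to 0.23 with a median of 0.06, and 11 were positive. Of the 10 cytosolic heat shock genes, 3 were positive, and they ran from -0.2 to 0.08. None of these differences passed, and 52.5% of all genes tested had positive values. Of the 7 ISR genes, 4 were positive within H1 and 7 within H9. In library 11 these genes lay 0.02 (SESN2) to 0.85 (CHAC1) above the median of the other H9 libraries on the log2 scale. Values by role are not given without library 11. Beyond the 45, 0 of 42 other UPR and ER folding genes, 0 of 36 other ISR genes and 0 of 46 other chaperones passed in the chronic comparison averaged over lines. In the authors' deposited table of chronic genes, 0 of 213 genes were among the 45, and KDELR3 was from the wider lists.

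Within H1, chronic organoids also gave 0 of 45, against 1.59% of all genes (280 genes, 16 without library 8 and 561 without library 11), and 3 at an unadjusted p under 0.05 (HSPA5, HERPUD1 and DDIT3), or 6.67% against 10.8%. HSPA5, the master chaperone BiP (chr9:125234853-125241382), had 309, 262 and 259 CPM in chronic H1, 250, 256 and 250 CPM in acute H1, and 226 and 217 CPM in H1 controls. All 6 dopamine-treated values lay above both controls, in a gene picked by its small p in the chronic H1 comparison. The chronic difference was 0.32 ± 0.11 (adjusted p = 0.223), HERPUD1 differed by 0.29 ± 0.11 (adjusted p = 0.322), and DDIT3 by 0.57 ± 0.23 (adjusted p = 0.353). The interval was within 1.5-fold for 34 of the 45 and within 2-fold for 42. In the same libraries 3 of 3 tested pigment cell markers rose, and their summed level was 14.1 to 16.5 CPM in chronic H1 against 1.74 to 1.94 CPM in H1 controls. Of the other markers in this comparison 1 of 6 of neurons fell, and 1 of 5 of astrocytes and SIX3 rose. The part of such cells in these values was not tested, and in whole organoids fewer cells of a type and less RNA per cell cannot be told apart.

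Among the 36 other ISR genes tested, 1 passed in chronic H1, beside 1.59% of all genes. It was SLC7A11, the cystine transporter subunit and a known ATF4 target, which rose. It had 49.8, 34.8 and 33.3 CPM in chronic H1, 18.4, 26.3 and 35.3 CPM in acute H1, and 18.9 and 12.4 CPM in H1 controls, a log2 difference of 1.33 ± 0.31 (adjusted p = 0.0367). Chronic values did not overlap the controls. The call was lost in 9 of the 17 fits that left out a library. Without library 1, a chronic one, the edgeR adjusted p was 0.169. It was also lost without library 8, an H1 control, which leaves library 7 as the only H1 control. The call was lost with libraries of the gut side alone too. That fit also leaves out library 8 and keeps library 7 as the only H1 control, so it is not a separate check. In chronic H9 the SLC7A11 difference was -0.11 ± 0.26 (edgeR adjusted p = 0.904). Chronic H9 libraries held 42.7, 20.8 and 37.1 CPM, the lowest in library 11, and H9 controls 35.7, 43.4 and 29.9 CPM.

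Chronic H9 organoids gave 0 of 45 as well, against 0.649% of all genes (114 genes, and 3 without library 17, an H9 control), with SERPINH1 and CHAC1 at an unadjusted p under 0.05, which is 4.44% against 11.8%. SERPINH1 (HSP47), the ER chaperone of procollagen (chr11:75562056-75572783), had 23.1, 34.8 and 20.7 CPM in chronic H9, 27.9, 36.3 and 27.8 CPM in acute H9, and 34.1, 42.1 and 35.9 CPM in H9 controls. Libraries 10 and 12 lay below all controls, while library 11, at 34.8 CPM, lay among them. The difference was -0.51 ± 0.17 (adjusted p = 0.232), and without library 11 it was -0.75 (adjusted p = 0.0351). In the same groups, summed CPM of 6 markers of collagen-making mesenchyme was 35.4 to 44 in chronic H9, 71.2 to 167 in acute H9 and 64.4 to 417 in H9 controls. Of those markers 4 fell in chronic H9 (COL3A1, COL1A2, COL1A1 and DCN), and none of the 6 was at 0 in any library. The controls differed among themselves. COL1A1 had 149 and 123 CPM in control libraries 17 and 18, but 1.01 CPM in control library 16, against 1.1 to 1.27 CPM in chronic H9. COL1A2 (1.95 CPM) and COL3A1 (0.592 CPM) were likewise low in library 16, whereas DCN there (15.6 CPM) lay above chronic H9 (6.53 to 8.7 CPM). The part of collagen-making cells in the SERPINH1 values was not tested.

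CHAC1, an ATF4 target that degrades glutathione (chr15:40952962-40956512), had 11.5, 21.1 and 12.9 CPM in chronic H9, 11.5, 11.6 and 10.1 CPM in acute H9, and 10.8, 11.5 and 9.55 CPM in H9 controls. The high value was library 11, and the groups touched at 11.5 CPM. The difference was 0.51 ± 0.19 (adjusted p = 0.262), and without library 11 it was 0.22 (adjusted p = 0.506). HYOU1, a BiP nucleotide exchange factor, came next, with 192, 211 and 190 CPM in chronic H9 against 184, 162 and 166 CPM in H9 controls. These did not overlap, and the difference was 0.21 ± 0.11 (adjusted p = 0.477), or a log2 difference of 0.18 without library 11. In H9, 36 of the 45 intervals were within 1.5-fold and 43 within 2-fold.

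**Figure D3:**
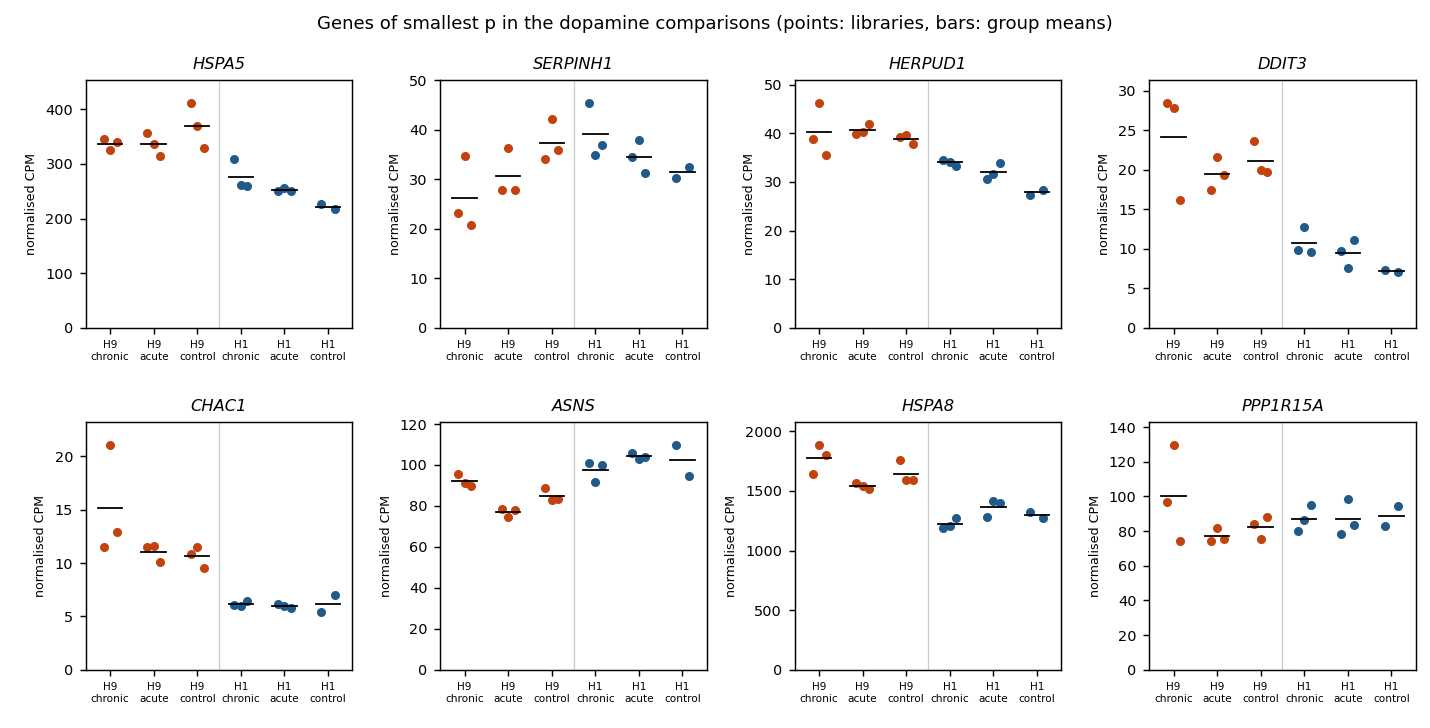
Normalised CPM per library (points) and group means (bars) of 8 genes among those of smallest p in the dopamine comparisons, for chronic, acute and control organoids of H9 and then H1. Group means of HSPA5 and HERPUD1 lie, from high to low, in the order chronic, acute, control in H1 but not in H9, and library 11 gives the single high chronic H9 points of CHAC1 (21.1 CPM) and PPP1R15A (130 CPM).

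A single hour of dopamine was asked about next. Averaged over lines, 0 of 45 passed against 0% of all genes, and 0 of 45 had an unadjusted p under 0.05 against 3.01%. The largest differences by p were those of HERPUD1 (0.13 ± 0.08), SESN2 (0.14 ± 0.09) and EIF2AK3 (0.17 ± 0.12), each with an adjusted p of 1. EIF2AK3 (PERK) had 37, 29.9 and 36.2 CPM in acute H9 and 30.1, 29.4 and 36.5 CPM in H9 controls, with overlap, and 29.5, 30.3 and 33.9 CPM in acute H1 and 25.6 and 27.4 CPM in H1 controls, without. Values of the 45 lay between -0.18 and 0.17, and intervals were within 1.5-fold for 43 genes and within 2-fold for all 45. In H9 0 of 45 passed, against 0% of all genes, and none had an unadjusted p under 0.05, against 2.99%. The H9 values of smallest p were SERPINH1 at -0.28 ± 0.17, ASNS at -0.14 ± 0.09 and the HSP70 cochaperone BAG3 at -0.33 ± 0.21 (adjusted p = 1 for each). BAG3 had 10.7, 12.6 and 10.5 CPM in acute H9 and 15.6, 13.5 and 13.4 CPM in H9 controls, so these groups did not overlap, and neither did those of ASNS. In H1 there were again 0, against 0.0114% of all genes, and 0 at an unadjusted p under 0.05, against 3.53%. HERPUD1 (0.2 ± 0.11), XBP1 (0.22 ± 0.12) and DDIT3 (0.39 ± 0.23) came first in H1, each with an adjusted p of 1. XBP1, the transcription factor spliced by ERN1, had 29, 30.8 and 31 CPM in acute H1 and 25.7 and 26.4 CPM in H1 controls, which did not overlap.

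Signs differed between the lines: 13 of 45 acute values were positive in H9, against 36 of 45 in H1, with medians of -0.088 in H9 and 0.066 in H1. Over all genes 49.7% were positive in H9 and 53.6% in H1. The difference of the acute effects, H9 minus H1, passed for 0 of 45 (0% of all genes) and had an unadjusted p under 0.05 for HSPA5 alone, which is 2.22% against 4.07% of all genes. HSPA5 differed by -0.32 ± 0.15, XBP1 by -0.33 ± 0.17 and DDIT3 by -0.5 ± 0.3 (adjusted p = 1 for each). The acute and chronic comparisons share their control libraries, and the 45 values within a comparison share them too. Of the wider lists 0 genes passed in any acute comparison, and the authors' deposited table of 55 acute genes held 0 of the 45 and HSPB6 from the wider lists.

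**Figure D4:**
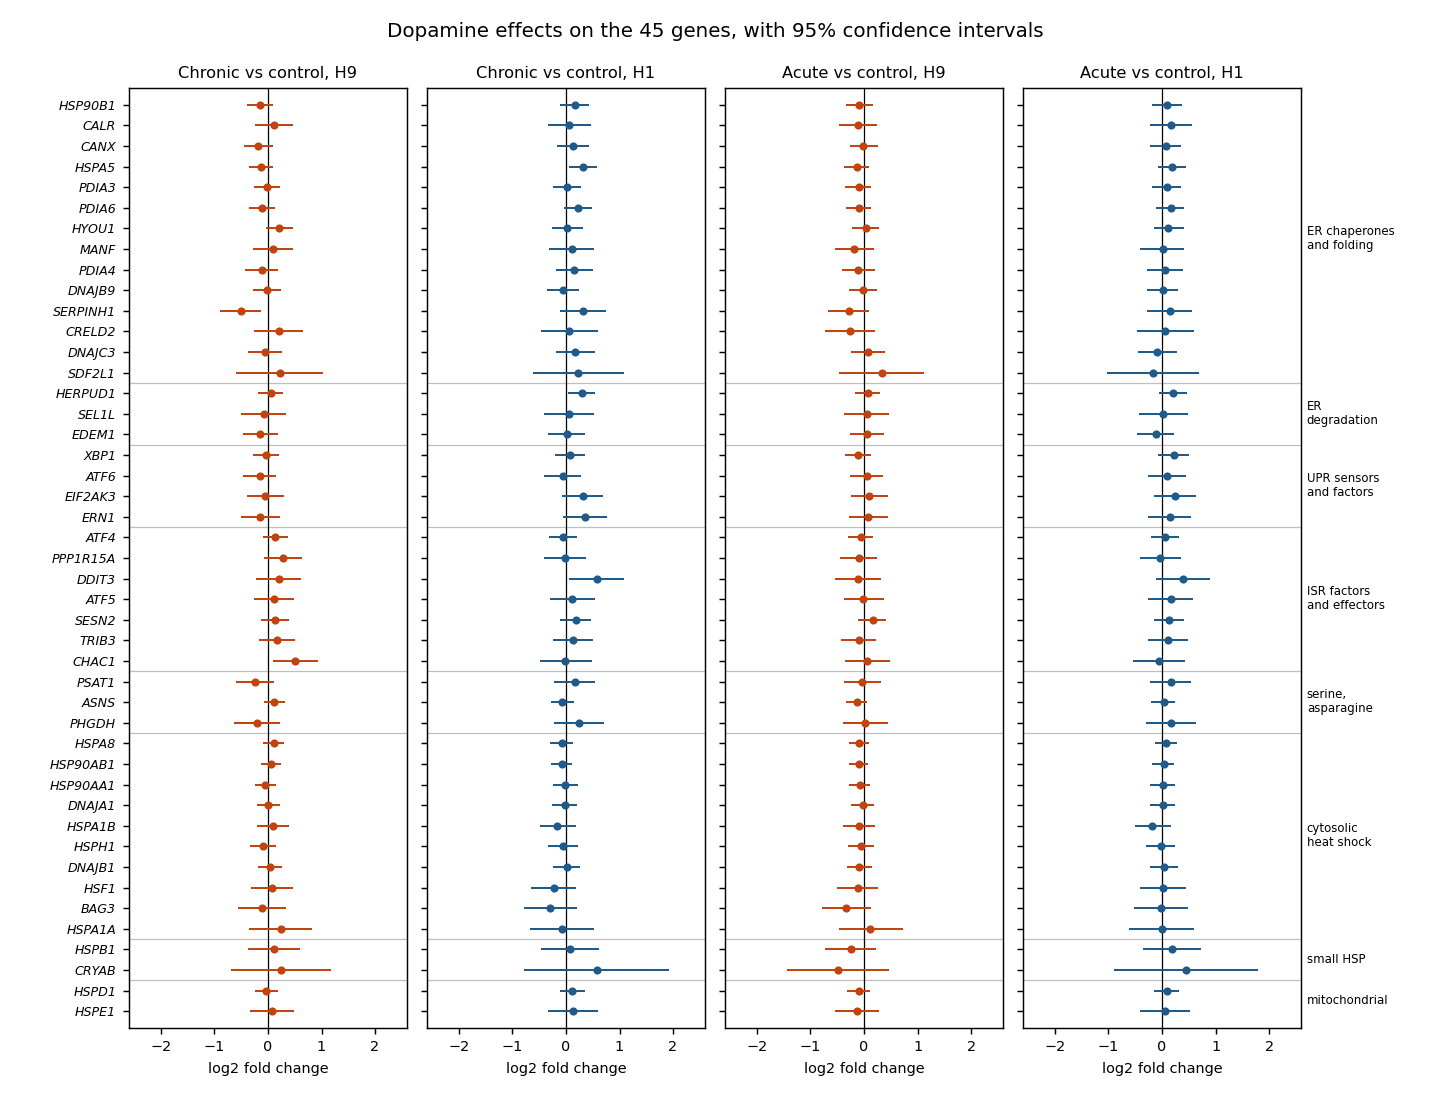
Log2 fold changes of the 45 genes against control with 95% confidence intervals, for chronic H9, chronic H1, acute H9 and acute H1, grouped by role. No gene passed in any panel, although the intervals of SERPINH1 in chronic H9 (-0.51) and of DDIT3 in chronic H1 (0.57) leave out 0 before adjustment. CRYAB has the widest interval in each panel.

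Chronic against acute organoids show what the week of dosing added to a shared final dose. Averaged over lines, 0 of 45 passed (0.239% of all genes), and 0 had an unadjusted p under 0.05 (10.5% of all genes). CHAC1 (0.25 ± 0.14, adjusted p = 0.542), ATF6 (-0.18 ± 0.1, adjusted p = 0.545) and PPP1R15A (0.19 ± 0.11, adjusted p = 0.562) came first. Without library 11 these differences were 0.11 for CHAC1, -0.07 for ATF6 and 0.09 for PPP1R15A. ATF6 had 104, 63.5 and 97.9 CPM in chronic H9 and 104, 96.1 and 106 CPM in acute H9, where the low value is library 11, and 72.6, 62.2 and 62.6 CPM in chronic H1 and 73.4, 77 and 68.9 CPM in acute H1. In H1 the count was 0 (0.0455% of all genes) and 0 at an unadjusted p under 0.05 (6.81%), with HSPA8 at -0.16 ± 0.08 (adjusted p = 0.776), DNAJC3 at 0.26 ± 0.15 (adjusted p = 0.808) and HSF1 at -0.24 ± 0.17 (adjusted p = 0.876). HSPA8 had 1190, 1210 and 1270 CPM in chronic H1 and 1280, 1420 and 1400 CPM in acute H1. DNAJC3 had 32.8, 30.6 and 31.1 CPM in chronic H1 and 28.3, 23.5 and 27.1 CPM in acute H1. Both genes were without overlap, in opposite directions. HSF1 had 56.4, 51.4 and 52.1 CPM in chronic H1 and 55, 81.3 and 53.4 CPM in acute H1, with overlap and with the high value in library 5. In H9 it was 0 (1.45% of all genes, or 254 genes, 76 without library 14, an acute one, and 788 without library 10, a chronic one), and 5 genes had an unadjusted p under 0.05, which is 11.1% against 17.8%: ASNS, HSPA8, PPP1R15A, CHAC1 and CRELD2.

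ASNS, asparagine synthetase (chr7:97851677-97872542), had 95.7, 91.3 and 89.7 CPM in chronic H9, 78.5, 74.6 and 78.2 CPM in acute H9, and 88.7, 82.7 and 83.4 CPM in H9 controls. Chronic values lay above all acute ones. The difference was 0.26 ± 0.09 (adjusted p = 0.137), and DESeq2 gave an adjusted p of 0.0337 for the same log2 difference of 0.26. HSPA8 had 1640, 1890 and 1800 CPM in chronic H9 and 1570, 1540 and 1520 CPM in acute H9, also without overlap, a difference of 0.2 ± 0.08 (adjusted p = 0.219). PPP1R15A (GADD34), which restores translation by dephosphorylating eIF2, had 97, 130 and 74.1 CPM in chronic H9 and 74.2, 81.6 and 75.5 CPM in acute H9. These overlapped, and the difference was 0.38 ± 0.16 (adjusted p = 0.223). Without library 11 the differences were 0.28 for ASNS, 0.18 for HSPA8 and 0.16 for PPP1R15A, with adjusted p-values of 0.125 for ASNS, 0.341 for HSPA8 and 0.617 for PPP1R15A.

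Whether the chronic effect differed between lines was tested as an interaction, H9 minus H1. It passed for 0 of 45, against 1.72% of all genes (303 genes, 47 without library 8 and 628 without library 11), and 3 genes had an unadjusted p under 0.05 (6.67%, against 14.4%). SERPINH1 gave -0.83 ± 0.26 (adjusted p = 0.127): chronic libraries averaged 26.2 ± 7.54 CPM and controls 37.4 ± 4.21 CPM in H9 (SD, n = 3 each), and in H1 chronic libraries averaged 39.1 ± 5.61 CPM (n = 3) and controls 31.4 ± 1.61 CPM (n = 2). This call turned on the settings. SERPINH1 passed without library 11 (-1.08, adjusted p = 0.00949), without a low-count filter (-0.86, adjusted p = 0.0378), in DESeq2 (-0.84, adjusted p = 0.0437) and in limma on log2(TPM + 1) (-0.94, adjusted p = 0.0389). Collagen-making markers moved the same way, with 5 of 6 passing at negative values, and their summed level was 77.3 to 117 CPM in chronic H1 against 35.3 to 41.9 CPM in H1 controls. Among H9 controls, COL1A1, COL1A2 and COL3A1 were high in libraries 17 and 18 but not in library 16.

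HSPA5 gave -0.45 ± 0.15 in that interaction (adjusted p = 0.146). Its chronic H9 libraries held 346, 325 and 340 CPM and its H9 controls 412, 369 and 329 CPM, which overlap, beside the H1 values above. DESeq2 called it at an adjusted p of 0.0486 (-0.45), and without library 11 it was -0.42 (edgeR adjusted p = 0.101). PDIA6, a disulfide isomerase that binds the sensor ERN1, came next at -0.34 ± 0.16 (adjusted p = 0.327). It had 121, 135 and 123 CPM in chronic H9 and 142, 146 and 122 CPM in H9 controls, with overlap, and 178, 153 and 155 CPM in chronic H1 and 141 and 136 CPM in H1 controls, without. Its value without library 11 was -0.38 (adjusted p = 0.15). In the 3 role groups of the ER and UPR, values were mostly negative, with 4 of 14 ER chaperones, 0 of 3 degradation genes and 0 of 4 sensors and factors positive, whereas 8 of 10 cytosolic heat shock genes were positive. Across all genes 47.8% were positive. These signs rest in part on library 11, and values by role are not given without it. On the log2 scale library 11 lay below the median of the other H9 libraries for SEL1L (-0.87), ATF6 (-0.63), EIF2AK3 (-0.57), EDEM1 (-0.54) and ERN1 (-0.29). It lay above that median for HERPUD1 and XBP1 (0.23 each). Among the heat shock genes it ran from -0.41 (HSPH1) to 0.58 (HSF1).

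The lines themselves differed far more than the treatments. Averaged over the 3 treatments, 31 of the 45 genes passed (68.9%), and 74.5% of all genes tested did, so the share is near the background. The higher group in H9 held 23 of the 45, against 38.6% of all genes, and the lower group 8, against 35.9%. The lower 8 were ASNS, ATF4, EDEM1, HSF1, HSPA1A, PDIA6, PHGDH and PSAT1. Differences were mostly small: 4 of the 45 passed with more than 2-fold, namely CRYAB, DDIT3, HSPA1A and PHGDH, against 31.1% of all genes. Within chronic, acute and control libraries taken singly, a comparison added after seeing the data, CRYAB differed by 3.36, 2.76 and 3.69, DDIT3 by 1.17, 1.04 and 1.54, HSPA1A by -1.86, -2.04 and -2.18, and PHGDH by -1.43, -1.13 and -0.99 in that order. The median log2 fold change was 0.187, beside 0.028 for all genes. All H9 values lay above all H1 values for 11 genes (22.7% of all genes did so) and below them for 3 genes (20.5% of all genes), and the ranges of the other 31 overlapped.

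Cell makeup moved with the line. Cycling cell markers summed to 22.8 to 58.4 CPM in H9 against 415 to 599 CPM in H1, with 5 of 5 lower. Progenitor markers summed to 909 to 1990 CPM in H9 against 2030 to 2880 CPM in H1, with 5 of 6 lower. Neuron markers were mixed, with 2 higher and 2 lower of 6, as were astrocyte markers, with 3 higher and 2 lower of 5. Of 6 collagen-making markers 3 were higher, while choroid plexus markers (1.81 to 9.12 CPM in H9 against 1.66 to 138 CPM in H1) had 1 of 5 lower and pigment markers 2 of 3 lower. Summed blood markers had 0.127 to 146 CPM in H9 and 0 to 27.2 CPM in H1, and gut markers 0.267 to 5.69 CPM in H9 and 0.0465 to 5.48 CPM in H1. The part of these cells in the values below was not tested.

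**Figure D5:**
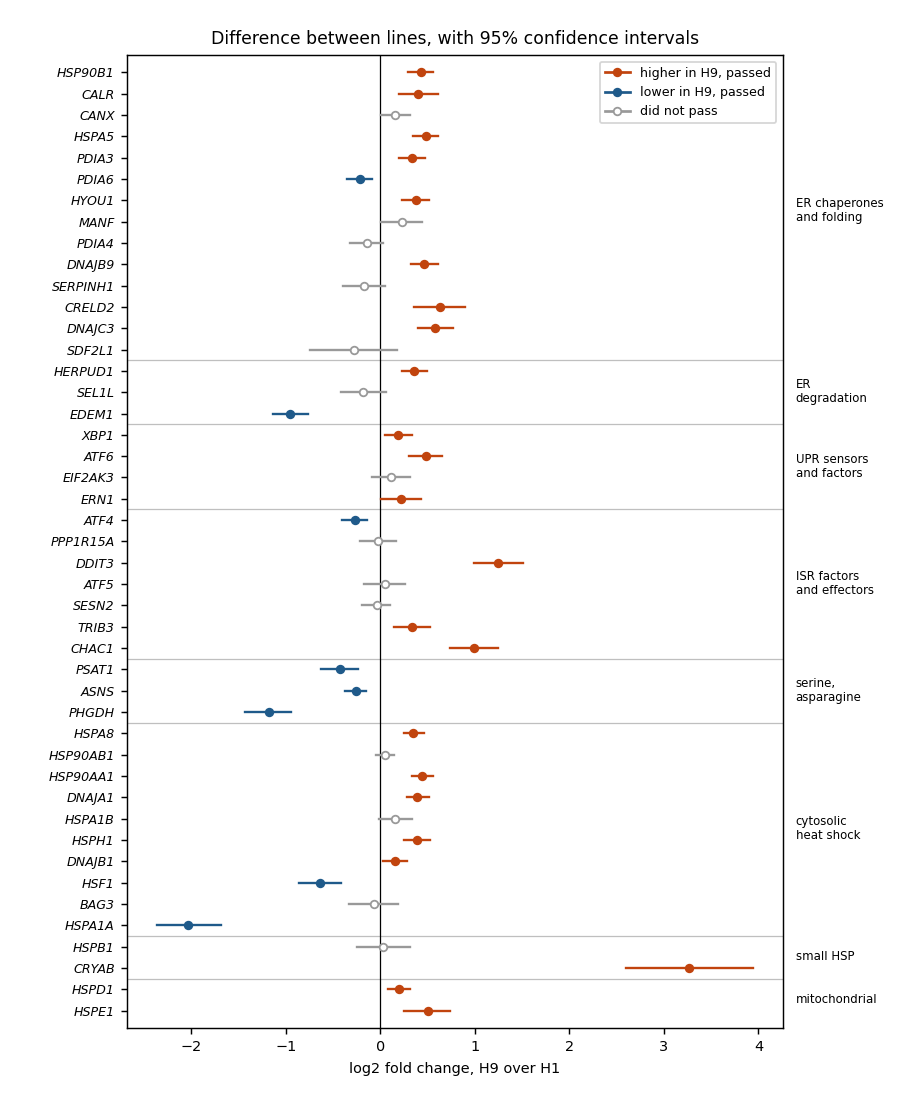
Log2 fold change of the 45 genes, H9 over H1, with 95% confidence intervals and filled points where the adjusted p was under 0.05, grouped by role. CRYAB (3.27) and HSPA1A (-2.03) lie outermost, and all 3 serine and asparagine synthesis genes lie below 0.

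Of the 14 ER chaperones, 8 were higher in H9, 1 was lower and 5 did not pass. Counts by role, here and below, stand beside 38.6% of all genes higher and 35.9% lower. HSPA5 had 315 to 412 CPM (median 340) in H9 and 217 to 309 CPM (median 253) in H1, with no overlap, a log2 fold change of 0.48 ± 0.06 (adjusted p = 1.39e-06). DNAJC3 (p58IPK), a BiP cochaperone that also restrains eIF2 kinases, had 29.9 to 50 CPM (median 42.8) in H9 and 23.5 to 32.8 CPM (median 28.5) in H1, and its difference was 0.58 ± 0.09 (adjusted p = 1.26e-05). The lowest H9 value was library 11, and the other 8 lay above every H1 library. The other higher chaperones were DNAJB9 (0.46), HSP90B1 (0.43), HYOU1 (0.38), PDIA3 (0.33), CRELD2 (0.63) and CALR (0.4), while the isomerase PDIA6 was lower (-0.22). MANF, CANX, PDIA4, SERPINH1 and SDF2L1 did not pass.

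ER degradation split. EDEM1, a lectin that hands misfolded glycoproteins to degradation (chr3:5187646-5219958), was lower, at 11.5 to 18.4 CPM (median 16.7) in H9 against 26.4 to 34.8 CPM (median 32.3) in H1, with no overlap and a difference of -0.95 ± 0.08 (adjusted p = 1.89e-08). HERPUD1 was higher, at 35.5 to 46.3 CPM (median 39.6) in H9 against 27.3 to 34.6 CPM (median 32.5) in H1, a difference of 0.36 ± 0.06 (adjusted p = 4.93e-05). SEL1L, the scaffold of the HRD1 ubiquitin ligase, did not pass (-0.18 ± 0.11, adjusted p = 0.168).

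Of the 4 sensors and factors, 3 were higher in H9. ATF6 had 63.5 to 106 CPM (median 98.5) in H9 against 62.2 to 77 CPM (median 68.8) in H1, a difference of 0.48 ± 0.08 (adjusted p = 6.45e-05), and only library 11 of the H9 libraries fell within the H1 range. XBP1 had 27.3 to 35.9 CPM (median 30.9) in H9 against 25.7 to 31 CPM (median 27.8) in H1, overlapping, a difference of 0.19 ± 0.07 (adjusted p = 0.0171). ERN1 sat on the threshold (0.22 ± 0.1, adjusted p = 0.0499), and its call was lost in 22 of 31 alternatives. EIF2AK3 did not pass (0.11 ± 0.09, adjusted p = 0.314).

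The ISR genes moved apart, with 3 higher, 1 lower and 3 not passing. DDIT3 had 16.2 to 28.5 CPM (median 20) in H9 against 7.11 to 12.8 CPM (median 9.63) in H1, without overlap, a difference of 1.25 ± 0.12 (adjusted p = 6.25e-08). CHAC1 had 9.55 to 21.1 CPM (median 11.5) in H9 against 5.37 to 7 CPM (median 6.04) in H1, also without overlap, a difference of 0.99 ± 0.12 (adjusted p = 7.29e-07). TRIB3, a pseudokinase induced by ATF4 and DDIT3, was higher by 0.34 ± 0.09 (adjusted p = 0.00257). ATF4 mRNA itself was lower, with a difference of -0.27 ± 0.06 (adjusted p = 0.000766). ATF5, PPP1R15A and SESN2 lay within 0.05 of 0 and did not pass.

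All 3 serine and asparagine synthesis genes, which are known ATF4 targets, were lower in H9. PHGDH, the first enzyme of serine synthesis (chr1:119648411-119744218), had 32.6 to 60.1 CPM (median 42.9) in H9 against 94.1 to 130 CPM (median 102) in H1, without overlap, a difference of -1.18 ± 0.11 (adjusted p = 5.32e-08). ASNS had 74.6 to 95.7 CPM (median 83.4) in H9 against 91.8 to 110 CPM (median 102) in H1, with overlap, a difference of -0.26 ± 0.05 (adjusted p = 0.000192). PSAT1, the next enzyme of the serine route, was lower, with a difference of -0.43 ± 0.09 (adjusted p = 0.000466). PSPH, the last enzyme of that route, is in the list of other ISR genes and was higher in H9 (0.27 ± 0.07, adjusted p = 0.00256). It was named after its values were seen. Averaged over treatments, DDIT3, CHAC1 and TRIB3 were thus higher in H9 while PHGDH, PSAT1 and ASNS were lower. Single-library values of TRIB3, PSAT1 and ASNS overlapped between the lines.

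In the cytosolic heat shock group 5 of 10 were higher, 2 lower and 3 did not pass. HSP90AA1 had 1600 to 1980 CPM (median 1820) in H9 against 1290 to 1410 CPM (median 1350) in H1, without overlap, a difference of 0.44 ± 0.05 (adjusted p = 9.96e-07), while its paralog HSP90AB1 did not pass (0.05 ± 0.05, adjusted p = 0.375). DNAJA1 (0.39), HSPA8 (0.35), HSPH1 (0.39) and DNAJB1 (0.16) were higher too. HSF1, the heat shock transcription factor, was lower, with a difference of -0.64 ± 0.1 (adjusted p = 2.91e-05).

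HSPA1A, the stress-inducible HSP70 (chr6:31815543-31817946), had 5.75 to 10.5 CPM (median 7.96) in H9 against 22.7 to 46.6 CPM (median 31.8) in H1, with no overlap and a difference of -2.03 ± 0.16 (adjusted p = 3.02e-09). Its neighbour HSPA1B (chr6:31827738-31830254) did not pass, at 86.7 to 126 CPM in H9 against 81.4 to 109 CPM in H1 (0.16 ± 0.08, adjusted p = 0.0852). These 2 genes are near-identical copies, and their counts are uncertain: in GENCODE each coding sequence has 1926 bases, 4 of which differ, and 72.4% of the 100-base windows of HSPA1A also occur in HSPA1B. How reads shared by copies were counted was not given in the sources used here. Summed, the pair had 93.4 to 137 CPM in H9 against 104 to 154 CPM in H1, overlapping, and HSPA1A made up 5.32% to 8.51% of it in H9 against 21.8% to 30.3% in H1.

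The small heat shock protein CRYAB (chr11:111908564-111923722), a chaperone of intermediate filaments that is abundant in glia, had the largest difference of the 45. It had 15.2 to 61.2 CPM (median 21.7) in H9 against 1.9 to 5.31 CPM (median 3.11) in H1, a difference of 3.27 ± 0.32 (adjusted p = 5.56e-08), and no values overlapped. The astrocyte markers S100B and AQP4 differed in the same direction (3.53 and 3.13), as did ALDH1L1, whereas GFAP was lower (-0.5). SLC1A3, the most abundant of the 5 markers, was lower too, at 201 to 490 CPM in H9 against 423 to 723 CPM in H1. Summed, the 5 had 249 to 644 CPM in H9 against 434 to 763 CPM in H1. The part of astrocytes was not tested. HSPB1 did not pass, at 29 to 62.4 CPM (median 38.5) in H9 against 30.4 to 53.7 CPM (median 38.1) in H1 (0.03 ± 0.13, adjusted p = 0.838), and the sign of this value changed with the settings.

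Both mitochondrial chaperonin genes were higher in H9. HSPE1 (HSP10) had 45.1 to 80.8 CPM (median 49.5) in H9 against 31.2 to 44.7 CPM (median 38.9) in H1, without overlap, a difference of 0.5 ± 0.11 (adjusted p = 0.000863). Its partner HSPD1 (HSP60) had 294 to 346 CPM (median 320) in H9 against 250 to 296 CPM (median 286) in H1, with a small overlap and a difference of 0.2 ± 0.05 (adjusted p = 0.00354).

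The wider lists also held differences in either direction. Of 42 other UPR and ER folding genes 18 were higher and 8 lower in H9, and of 36 other ISR genes 11 were higher and 11 lower. Of 46 other chaperones 14 were higher and 16 lower. Beside these, 38.6% of all genes tested were higher in H9 and 35.9% lower, or 74.5% in either direction. CREB3L1, a membrane-bound relative of ATF6, had 14.1 to 30.7 CPM in H9 against 0.737 to 1.55 CPM in H1 (3.97 ± 0.17, adjusted p = 1.04e-12). SEC63, part of the ER translocon, was lower, with 75.5 to 126 CPM in H9 against 171 to 192 CPM in H1 (-0.74 ± 0.07, adjusted p = 5.61e-08). Among ISR genes, ATF3 had 11.5 to 26 CPM in H9 against 4.05 to 8.41 CPM in H1 (1.54 ± 0.16, edgeR adjusted p = 1.29e-07). NUPR1 had 5.4 to 12 CPM in H9 against 1.41 to 3.1 CPM in H1 (2.05 ± 0.17, edgeR adjusted p = 8.33e-09). JDP2 (1.46 ± 0.11) and STC2 (1.25 ± 0.12) were also among the 4 ISR genes of smallest p. These 4 were all higher in H9, whereas the 11 lower ISR genes include EIF2B1 (-0.6) and ALDH1L2 (-0.94). HSPB8, a small heat shock protein that works with BAG3, had 9.43 to 15.9 CPM in H9 against 0.114 to 0.558 CPM in H1 (5.67 ± 0.21, adjusted p = 2.15e-13). HSPA12A, an HSP70 relative, had 71.2 to 102 CPM in H9 against 14 to 31.3 CPM in H1 (2.02 ± 0.12, edgeR adjusted p = 8.51e-11). Both chaperones named from this list are higher ones, beside its 16 lower genes.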

How the data were processed

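Read counts per gene and TPM of all 18 libraries were computed and deposited by the authors as unnormalised counts and as TPM, with genome builds GRCh38 and hg38 named in the submitters' processing notes. Aligner, counter and annotation were not given in the sources used here. Per the file headers, the authors' deposited tables of chronic and acute genes also hold log2 fold changes and p-values, of which gene membership alone was used. The libraries are strand-specific, per the labels' protocols. Among the symbols, 28 had been turned into dates (0.439% of counts), none of them a listed gene, and 0 per-sample columns were left unused.

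Columns were mapped to samples by library number. Counts of 17 libraries were fitted with edgeR 4.0.16 in R 4.3.3 (filterByExpr, TMM scaling, quasi-likelihood F test, 6 group means, Benjamini-Hochberg adjustment over 17567 genes, threshold 0.05). CPM are TMM-scaled, and errors are SE for fold changes and SD for levels. Alternatives used DESeq2 1.42.0 and limma 3.58.1 on log2(TPM + 1) and log2(TPM + 0.1), other scalings and filters, library 9 included, the blood and gut split, a threshold of 0.1 and each library left out. The fits were tested on simulated data.

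The genes and lists were chosen with earlier results of these data known. Values in every library (between lines, the lowest, median and highest) are given for all genes that pass where 8 or fewer do, otherwise for the 2 of smallest p in each role group, and for the 3 of smallest p where none pass, with up to 4 per wider list. Gene positions and transcript lengths are from GENCODE release 44 on GRCh38, and promoters from RefSeq. One marker is not reported here.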

Additional observations from a re-analysis of the deposited data

How the results depend on the processing

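In 11 dopamine comparisons and interactions no gene of the 45 passed in the main analysis, and the count stayed at 0 in the alternatives with the following exceptions. Chronic against control in H9 gave 0 to 1 (SERPINH1) when single libraries were left out, and the gain came from leaving out library 11. Chronic against acute in H9 gave 1 (ASNS) in DESeq2. The difference of chronic effects gave 1 (SERPINH1) without a low-count filter, 1 with limma on log2(TPM + 1), 1 on log2(TPM + 0.1), 2 (SERPINH1 and HSPA5) in DESeq2, and 0 to 1 when single libraries were left out. The cause was not tested.

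Between lines, 31 genes passed, 28 to 35 when single libraries were left out, and 14 of the 31 passed in all 31 alternatives. With library 9 included 25 passed. Within single treatments, a comparison chosen after seeing the data, 25 passed in chronic, 20 in acute and 26 in control libraries, each with fewer libraries. The shares of all genes that passed within single treatments are not given here. ERN1 reversed to -0.09 within chronic libraries. HSPB1, not called, changed sign with library 9 included (-0.12), within acute libraries (-0.28), and from -0.08 to 0.1 over the libraries left out. DNAJB1 lost its call in 13 alternatives. Scalings moved the median of all genes by 0.053 at most.

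Fits with 2 H1 controls limit what H1 comparisons can show. No paired analysis was possible because library numbers are unique and shared by no groups.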

Other observations

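Of the 17 libraries, library 5, an H1 acute library, came after library 11 in the share of genes at an extreme of its line: 41.9% of all genes tested and 19 of the 45 genes were highest or lowest in it among the 8 H1 libraries. HSPB1 was highest there (53.7 CPM, against 30.4 to 39.6 CPM in the other H1 libraries), as was HSF1 (81.3 CPM, against 51.4 to 65.8 CPM). Its deviations had a Spearman correlation with transcript length of -0.07 across 15104 genes, given as a description.

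Entries named as pseudogene copies were found for 14 of the 45 genes. Their counts came to at most 2.23% of the counts of gene and copies together (PDIA3), with 1.68% for HSPE1 and 0.312% for HSP90B1.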
